A study of Mus musculus with 2 samples.

Results

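The 3 gastrokine genes of the mouse, Gkn1, Gkn2 and Gkn3, lie side by side on chromosome 6, and are described here by the CTCF peaks over and beside them in the stomach at birth. They were taken by name from GENCODE release M21, as 3 of its 21938 protein-coding genes on the autosomes, X and Y. CTCF was profiled by ChIP-seq in stomach tissue from mice of strain B6NCrl at postnatal day 0, in 1 group of 2 samples numbered as biological replicates 1 and 2. ChIP-seq sequences the DNA recovered with an antibody to a protein, here CTCF, a zinc finger protein found at insulators and at the anchors of chromatin loops. The labels give both replicates the same donor and the same tissue sample, so the spread between them may be technical. With 1 group there was no contrast between conditions and no test was run. Expression and loops were not measured, and the stomach holds many cell types besides those that use gastrokines.

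Gastrokines are small secreted proteins of the gastric mucosa that share a BRICHOS domain, a fold also found in surfactant protein C and in the integral membrane proteins of the Itm2 family. Gkn1 is a product of the surface mucous cells and is often lost in gastric cancer. Gkn2 pairs with the trefoil peptide Tff1 in the mucus layer. Gkn3 is made by mucous neck cells of the mouse, and its human counterpart is a pseudogene.

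In mm10 coordinates the joint span of the group runs from 87345650 to 87388935 on chromosome 6, which is 43286 bp. Gkn1 (ENSMUSG00000030050.4, 87345650 to 87350942) and Gkn3 (ENSMUSG00000030048.5, 87383256 to 87388935) are on the minus strand, while Gkn2 (ENSMUSG00000030049.5, 87373357 to 87379497) is on the plus strand. Each gene has 6 exons and 1 annotated transcription start site (TSS). The Gkn1 and Gkn2 genes are 22414 bp apart, whereas Gkn2 and Gkn3 converge tail to tail with 3758 bp between them. On the low side lies Antxr1, an anthrax toxin receptor of endothelium and stroma, and on the high side lie Bmp10, a growth factor of the developing heart, and Arhgap25, a Rac regulator of blood cells. These are the protein-coding neighbours within the window of 100 kb on either side (87245650 to 87488935).

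In the optimal list, CTCF peaks lay inside Gkn1 and Gkn3, and none lay in Gkn2 or at the TSS of any of the 3 genes. The optimal list of the authors holds peaks that passed their IDR step, a filter on how well peak ranks match between lists of peaks. Passing it is not taken here as presence in both replicates, which was counted separately. This list had 3 peaks in the joint span and 15 in the window. Gkn1 had 1 of these in its last intron, and Gkn3 had 2, in introns 3 and 4. The CTCF motif matches at the summits of these peaks and of the first peak beyond either end are shown because they set the direction of each site. The motif was scored with a matrix of 19 positions built from strong peaks of chromosome 1. Each sequence is from the mm10 reference, 5′ to 3′ in the direction of the motif, with the motif in capitals and 10 bases beside it.

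Consensus of the matrix: TGGCCACCAGGGGGCACTA
Low border, at the Antxr1 start: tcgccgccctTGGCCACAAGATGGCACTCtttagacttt
Gkn1 intron 5: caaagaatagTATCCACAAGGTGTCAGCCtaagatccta
Gkn3 intron 3: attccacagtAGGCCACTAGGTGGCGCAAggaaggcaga
High border, upstream of Gkn3: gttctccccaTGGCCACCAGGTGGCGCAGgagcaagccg
Gkn3 intron 4, below the threshold: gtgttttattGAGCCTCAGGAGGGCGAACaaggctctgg

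These stretches lie at chr6:87335852-87335890 (minus strand), chr6:87346585-87346623 (minus), chr6:87386382-87386420 (minus), chr6:87399303-87399341 (plus) and chr6:87384596-87384634 (plus). A summit counted as having the motif when the best score within 50 bp reached 11.8, which 1% of random windows of that size met. The Gkn1 match scored 16.4 and had the consensus base at 11 of 19 positions. The match in intron 3 of Gkn3 scored 22.7, with 14 of 19. Those at the low and high borders scored 23.5 and 25.04, with 15 of 19 each. In intron 4 of Gkn3 the best match scored 10.1, which is 1.67 below the threshold, with 9 of 19. The Gkn1 match and the low border had no CpG in the motif, while intron 3 of Gkn3 and the high border had 1 each.

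**Figure D1:**
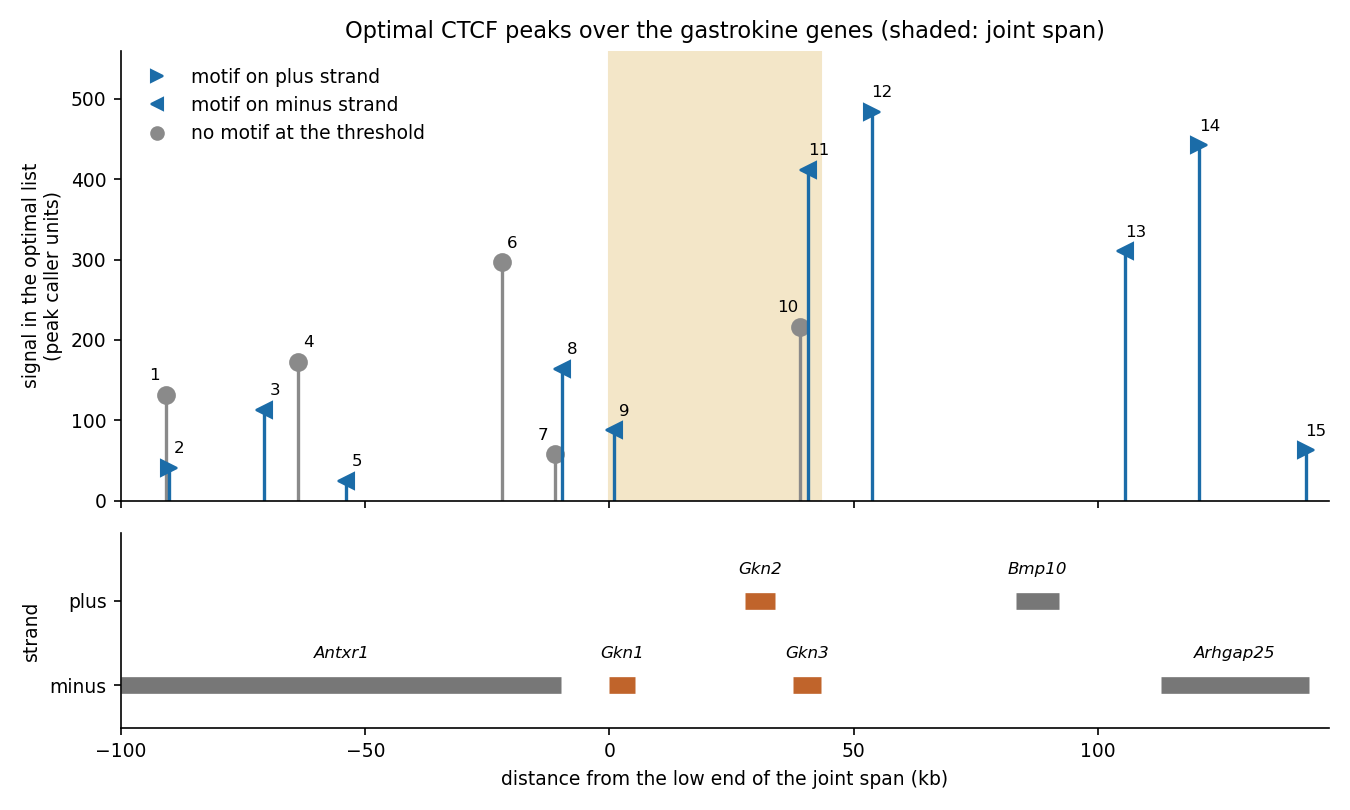
Optimal peaks in the window around the gastrokine genes, with the signal of each peak (vertical axis, units of the peak caller) against the distance from the low end of the joint span (horizontal axis, kb), numbered 1 to 15 from low to high coordinate. Arrowheads give the strand of the CTCF motif, grey circles mark the 5 peaks without it, and the lower panel shows the coding genes by strand. The shaded joint span holds peaks 9, 10 and 11, and Gkn2 lies between peaks 9 and 10 with no peak of its own.

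Gkn3 had the strongest peak of the 3 genes. Its peak in intron 3 (87386252 to 87386554) had its summit 2540 bp downstream of the TSS, with a signal of 412. The signal is the authors' value per peak, and levels are compared only within a list. This peak stood at rank 4746 and above 93.6% of the optimal list. In the replicate 1 list its signal was 226, and in replicate 2 it was 186. The summits of both replicates lay within 1 bp of the optimal summit.

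The second Gkn3 peak, in intron 4 (87384504 to 87384734), had its summit 4321 bp downstream of the TSS and 1781 bp from the first. Its signal was 216, above 73.5% of the optimal list. It had a signal of 123 in replicate 1 and 93.2 in replicate 2, so its order after the intron 3 peak was the same in either list. Although stronger than the Gkn1 peak, it had no match at the motif threshold. Masked repeat sequence made up 20.8% of the bases within 50 bp of its summit and 19.8% of those around the intron 3 summit.

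Gkn1 had a single optimal peak within 10 kb of its TSS, in intron 5 (87346554 to 87346659), near the 3′ end of the gene. Its summit lay 4335 bp downstream of the TSS, with a signal of 87.3, above 53.3% of the optimal list. The signal was 48.0 in replicate 1 and 36.05 in replicate 2. In both replicate lists this value was lower than that of either Gkn3 peak. The bases within 50 bp of the summit were 40.6% GC and held no masked repeat.

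Gkn2 had no optimal peak within 10 kb. The nearest summit was 11257 bp downstream of its TSS and belonged to the peak in intron 4 of Gkn3. The gene lay in a stretch of 38007 bp between the peaks of Gkn1 and Gkn3 that was free of optimal peaks, and 21.03% of all distances between neighbouring optimal summits were as long or longer. So 2 of the 3 genes had a peak within 10 kb, against 72.3% of all coding genes, or 69.7% when the TSS of coding transcripts alone were counted. A nearer peak was found at 55.0% of coding genes than at Gkn3, at 61.4% than at Gkn1, and at 73.7% than at Gkn2. Every annotated TSS of a gene was counted here and in the shares at other distances below. Genes with several TSS thus had more chances of a near peak than a gastrokine, which has 1. The distance of 10 kb bears on this count, since the nearest peak of Gkn2 lay just outside it. A strong peak 10390 bp upstream of Gkn3 also lay just outside, but Gkn3 was already counted by its 2 nearer peaks. At 5 kb the count was also 2, against 63.2% of all coding genes. At 50 kb it was 3, against 88%, and at 1 kb it was 0, against 45.6%.

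Below the optimal list, the deposited relaxed lists of the single replicates added mostly weak peaks near the 3 genes that were not shared between replicates. These lists hold 300000 peaks each, with the lowest signal at 3.17 in replicate 1 and 2.58 in replicate 2. Within 10 kb of a gastrokine TSS they held 13 peaks with no optimal partner, 7 in replicate 1 and 6 in replicate 2. None of the 13 had a summit of the other replicate within 100 bp, and none had the motif. Their signals ran from 3.36 to 5.84 in replicate 1 and from 2.61 to 15.8 in replicate 2.

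The highest of them lay 2404 bp upstream of Gkn1 in replicate 2, with a signal of 15.8 and a −log10 q of 4.55. It stood at rank 53569 in that list, inside its 74283 strongest, the size of the optimal list. Optimal peaks 2 and 5 of the window had lower signals in that list (15.3 and 13.0), and the other window peaks had higher ones. The list of both replicates together had it at a signal of 20.2. Replicate 1 had no summit within 100 bp of it. With the 74283 strongest peaks of replicate 2 alone, the nearest peak to Gkn1 was this one, in place of the intron 5 peak.

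The other relaxed peaks nearest to the starts had signals from 2.65 to 5.10. Gkn2 had 1 in replicate 2 at 1128 bp downstream, in intron 1, with a signal of 2.85, and another 2457 bp upstream with 2.65. Replicate 1 had its nearest 9959 bp downstream, inside Gkn3, with 3.76. Gkn1 had a further peak in replicate 2 at 1032 bp downstream with 2.78. Gkn3 had 1 in replicate 1 at 382 bp upstream with a signal of 5.10, close to the median of that list (5.23). Replicate 2 had its nearest such peak 2183 bp upstream with 2.99.

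**Figure D2:**
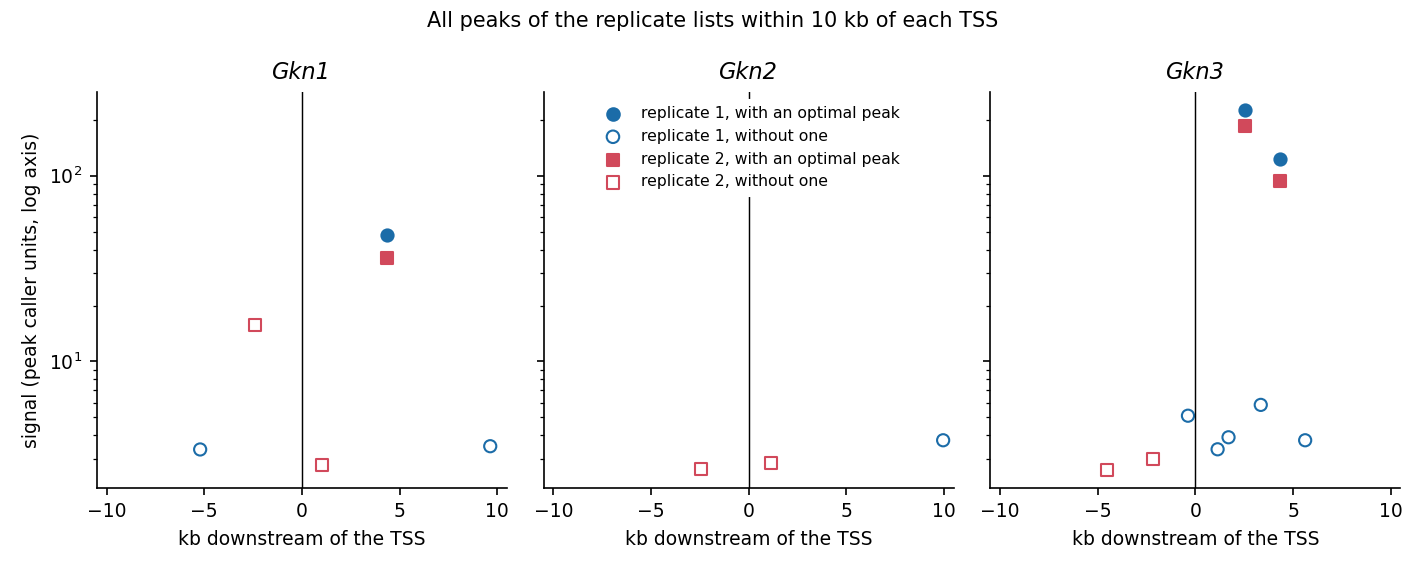
Every peak of the replicate lists within 10 kb of the TSS of each gene, with the signal on a log axis (peak caller units) against the distance downstream of the TSS in the direction of the gene (kb). Filled marks have an optimal peak within 100 bp and open marks do not. The filled marks of Gkn1 and Gkn3 come in pairs, 1 from each replicate, while Gkn2 has open marks alone, at 2.65 to 3.76.

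The gene group was bordered on either side by a peak about as far from its end, with motifs that pointed away from the genes. The low border peak (87335770 to 87336001) lay 9759 bp beyond the group, with its summit 70 bp from an Antxr1 TSS. Its signal was 164 in the optimal list, 100.1 in replicate 1 and 65.4 in replicate 2. The high border peak (87399163 to 87399475) lay 10390 bp beyond the group, between Gkn3 and Bmp10. Its signal of 484 was the highest of the window and above 98.5% of the optimal list, with 251 in replicate 1 and 235 in replicate 2. The motif was on the minus strand at the low border and on the plus strand at the high one. Between them the motifs of Gkn1 and Gkn3 were both on the minus strand. The 4 matches from the Antxr1 start to the high border thus ran minus, minus, minus and plus, with the change of direction in the 12930 bp between intron 3 of Gkn3 and the high border.

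Beyond the high border, the next peak lay 51891 bp further on (87451085 to 87451335, signal 310) with its motif on the minus strand. These 2 motifs faced each other across a stretch without optimal peaks that held all of Bmp10, whose TSS was 22222 bp from the nearest summit. Of all distances between neighbouring optimal summits, 15.1% were as long or longer. A further peak in an exon of a non-coding Arhgap25 transcript had a signal of 443 (87466267 to 87466575) and its motif on the plus strand.

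The remaining peaks of the window were mostly in Antxr1. Its body held 7 of the 15, with signals from 24.7 to 296. The strongest of these lay in an intron (87323470 to 87323706) and had no match at the threshold, with a best score of 8.58. Another, in an exon of a non-coding Antxr1 transcript (87281853 to 87282070, signal 173), missed the threshold by 0.0673. The weakest (87291644 to 87291939, signal 24.7) was 89.1% masked repeat around its summit. Arhgap25 held 2 peaks, the second in a coding exon with a signal of 62.8.

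Over the window, 10 of the 15 peaks had the motif, against 69.7% of optimal peaks outside chromosome 1. At a stricter score, met by 0.1% of random windows, 5 did, against 32.8% of optimal peaks outside chromosome 1. These included intron 3 of Gkn3 and both borders but not Gkn1. The matrix also found 5 matches in the joint span, of which the 2 with a peak were those of Gkn1 and Gkn3. On chromosome 6 as a whole, 17.5% of matches had an optimal peak within 50 bp. The other 3 matches all lay between Gkn1 and Gkn2, scored 12.7, 13.3 and 13.3, and had no summit within 50 bp even in the relaxed list of both replicates. They are shown for comparison with the sites that had a peak, at chr6:87355442-87355480 (minus strand), chr6:87356837-87356875 (plus) and chr6:87360936-87360974 (minus).

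No peak, lowest coordinate: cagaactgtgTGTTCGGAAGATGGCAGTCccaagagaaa
No peak, middle: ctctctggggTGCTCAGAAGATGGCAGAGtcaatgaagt
No peak, highest coordinate: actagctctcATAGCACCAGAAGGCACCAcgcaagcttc

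All 15 peaks of the window were found in both replicate lists within 100 bp, against 97.1% of all optimal peaks. Among the 74283 strongest peaks of each replicate, as many as the optimal list holds on the chromosomes, 14 of 15 were found in both, against 83.2% of all. The exception was the weakest Antxr1 peak, which was also the peak of the window that the authors' conservative list, a second IDR list, lacked. That list held 1 other peak instead, in a coding exon of Antxr1 (87270628 to 87270923, signal 22.5). The signal was higher in replicate 1 at 14 of the 15, with ratios of replicate 1 to replicate 2 from 0.765 to 2.01 and a median of 1.38. Over all optimal peaks found in both lists the median ratio was 1.33. The ratios of the gastrokine peaks were 1.33 in Gkn1, 1.32 in intron 4 of Gkn3 and 1.21 in intron 3, and the high border had 1.07. The signals are not scaled between lists, so no difference in binding is read from these ratios. The ratio was above 1 at 63865 of 72160 optimal peaks.

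**Figure D3:**
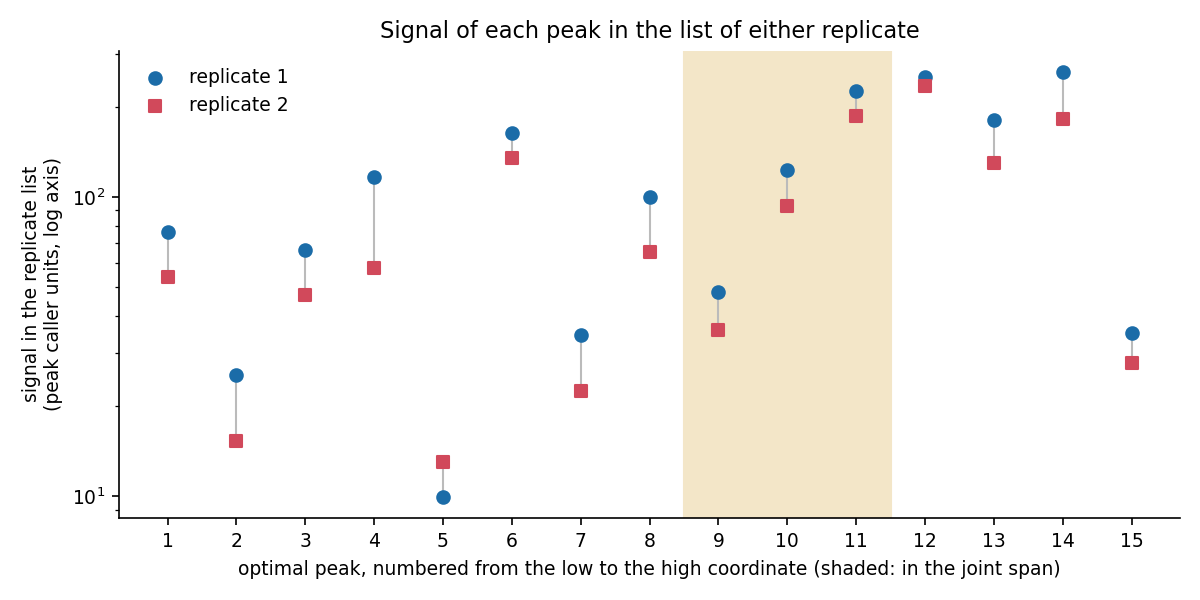
Signal of the 15 window peaks in the replicate 1 list (circles) and the replicate 2 list (squares), on a log axis in units of the peak caller, with the joint span shaded. Peaks 10 and 11 of Gkn3 stand above peak 9 of Gkn1 in both lists, and replicate 1 is the higher at every peak but number 5.

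The window held 61.7 optimal peaks per Mb (exact Poisson 95% interval 34.5 to 102), and the joint span 69.3 (14.3 to 203), against 28.0 on chromosome 6 and 28.1 over all chromosomes. The interval of the joint span rests on 3 peaks and includes the value of the chromosome. These intervals cover counting error only, and the region was chosen with earlier results known. The median signal was 216 in the joint span and 164 in the window, against 76.6 in the optimal list.

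Of the other BRICHOS genes, 4 had an optimal peak closer to the start than Gkn3 did, namely Itm2b, Itm2c, Cnmd and Sftpc. Of the 10 genes of the family, 7 had an optimal peak within 10 kb (70%, near the 72.3% of all coding genes), and of the 7 besides the gastrokines 5 did. The strongest peak within 10 kb was that of Gkn3 (412), followed by Bricd5 (406) and Cnmd, the cartilage protein chondromodulin (327). Sftpc, which encodes surfactant protein C, had a signal of 321 at 1450 bp. Itm2a and Tnmd, both on the X chromosome, had none. The median distance to the nearest summit was 3438 bp, against 1556 bp over all coding genes.

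Among 18 genes of gastric surface and gland mucous cells, 15 had an optimal peak within 10 kb, which is 83.3% against 72.3% of all coding genes. The 18 include the gastrokines, and of the 15 genes besides them 13 had one. With coding transcripts alone 13 of the 18 did, against 69.7% of all. The distance bears on this count too. At 5 kb 11 of the 18 genes had a peak, against 63.2% of all coding genes, and at 1 kb 6 did, against 45.6%. At 50 kb all 18 did, against 88%. The strongest were at Muc1, a membrane mucin (467), Psca, a cell surface antigen of the gastric epithelium (435), and Capn9, a stomach calpain (421). Without a peak were Gkn2, Muc5ac, the main mucin of the surface cells, at 29411 bp from the nearest summit, and Tff1, the partner of Gkn2, at 22327 bp. The median distance was 3981 bp, against 1556 bp over all coding genes. The strongest peak within 10 kb of a gene can lie nearer to another gene.

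**Figure D4:**
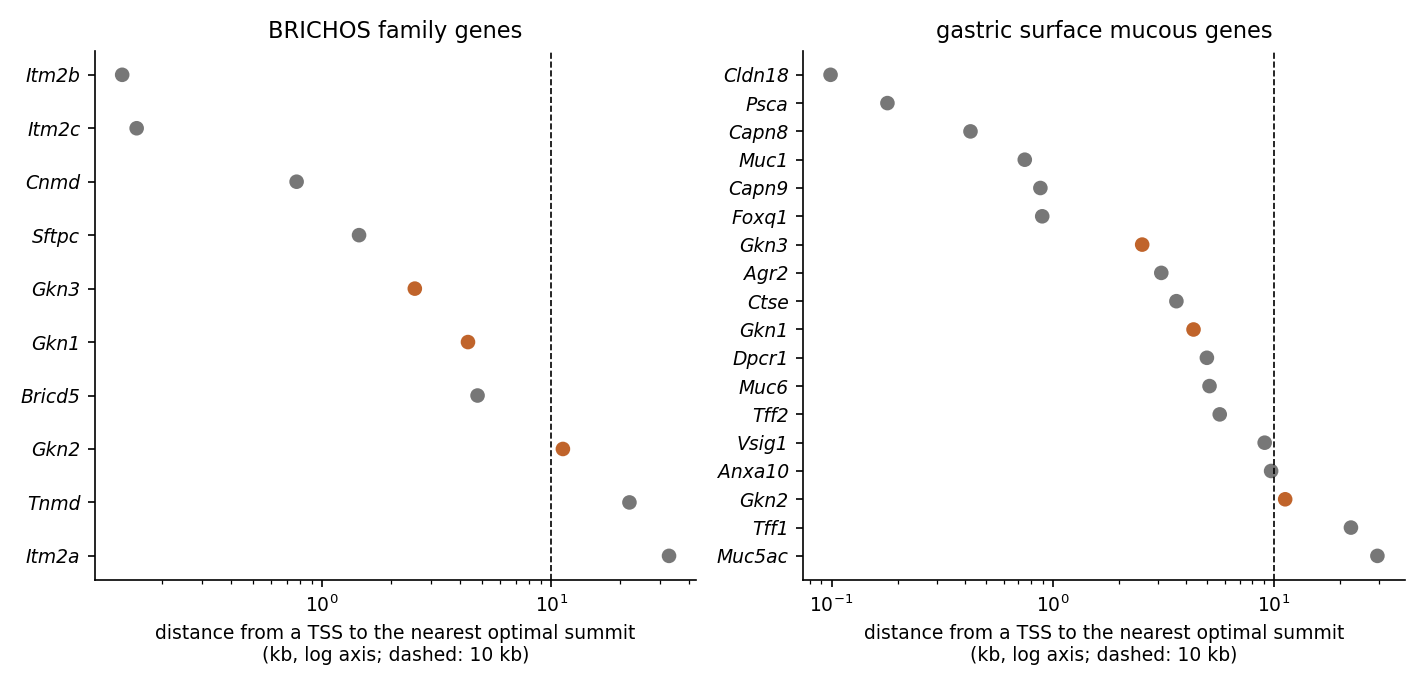
Distance from a TSS to the nearest optimal summit (kb, log axis) for the 10 BRICHOS genes and the 18 gastric mucous genes, with gastrokines in orange and the dashed line at 10 kb. Gkn3 (2540 bp) and Gkn1 (4335 bp) lie inside the line, and Gkn2 (11257 bp) lies outside it in both panels.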

How the data were processed

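CTCF ChIP-seq of newborn stomach was deposited as 5 peak lists in mm10: relaxed lists of replicate 1, replicate 2 and both together, and the optimal and conservative lists after IDR. Per the labels and the descriptions deposited with the samples, the relaxed lists derive from alignments and a control alignment. For the aligner, the caller and the cut-off of the IDR step, each is not given in the sources used here. Deposited values are a signal per peak, −log10 of a q-value, a score (not used to choose peaks) and other summit offsets. Read depth is unknown, and signals are not scaled between lists.

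Unplaced scaffolds were left out, which kept 74283 optimal peaks on 19 autosomes, X and Y. The summit is the peak start plus the deposited offset, counted from 1. The CTCF matrix was built from 986 aligned sequences among the top 1000 peaks of chromosome 1 by signal, and 100000 random windows set its threshold. Motif and distance steps were checked on planted data. Gene models were GENCODE M21, and sequence came from the RefSeq copy of GRCm38. Tools were matplotlib 3.10.9, numba 0.67.0, scipy 1.17.1, pandas 2.3.3 and numpy 2.4.6 under Python 3.11.15.

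The genes and lists were chosen with earlier results of these data known. Named were the gastrokines, the coding genes of the window, and from each list the top 3 by peak signal plus at most 3 lacking a peak, taken alphabetically. Itm2b, Itm2c and Sftpc were added after their values were seen. Dpcr1 is annotated as Mucl3. Alternatives were the other lists, each replicate alone, other distances and other motif settings.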

Additional observations from a re-analysis of the deposited data

How the results depend on the processing

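Of 78 alternative values for 13 results, 67 stayed close to those reported. Close meant within 1.5 times for a count. A distance or rank was judged by the spread of the same 2 replicates. Some shifts of a few bp thus counted as not close, such as 11253 against 11257 bp for Gkn2. Some of the 67 could not differ, such as the gene start alone for the gastrokines, which have 1 TSS each. A change from 2 to 3 gastrokine genes at 50 kb also counted as close. The tally is therefore not a measure of robustness. With 50 kb or 200 kb beside the span the window held 7 or 25 peaks. At 1 kb from a TSS the genes with a peak fell to 0 of the gastrokines, 3 BRICHOS genes and 6 mucous genes, against 45.6% of all coding genes. At the motif threshold met by 0.1% of random windows, 5 window peaks had the motif. From 1 replicate alone the nearest peak lay 2404 to 4335 bp from the Gkn1 TSS, with the lower value from replicate 2, 11253 to 11257 bp from Gkn2 and 2540 to 2541 bp from Gkn3. The borders then lay 9754 to 9758 bp and 10389 to 10397 bp beyond the group. The joint span held 3 peaks in the conservative list, in the 37141 strongest optimal peaks and in replicate 1 alone, and 4 in replicate 2 alone, the extra one upstream of Gkn1. The alternative with the TSS of coding transcripts alone was chosen after seeing the data. The sequencing depth is unknown, so whether the region without peaks around Gkn2 holds weaker binding could not be judged. No paired analysis was possible because there was 1 group.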
